A study of Homo sapiens with 12 samples.

Results

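The genes described here are a list of ATF4-responsive, amino acid synthesis, amino acid transport and tRNA synthetase genes, matched by symbol to Ensembl identifiers. The list was chosen with earlier results of these data known, so shares of members set beside those of all genes are a description only. They are 41 of the 61757 genes found in both count tables. They fall into 7 transcription factors, 6 feedback and stress effectors, 5 serine and one-carbon enzymes, 7 other amino acid enzymes, 7 amino acid transporters, and 9 genes of tRNA charging and export. All 41 passed the low-count filter in each experiment.

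Cells that run short of amino acids, or whose proteins misfold, phosphorylate the initiation factor eIF2. General translation then falls while the mRNA of the transcription factor ATF4 is translated more efficiently. ATF4, paired with C/EBP factors, switches on genes that make amino acids (among them serine, through PHGDH, PSAT1 and PSPH), carry them into the cell and load them onto tRNAs, as well as genes such as TRIB3 and CHAC1 that limit or reshape the response. Because ATF4 is controlled largely at translation, the level of its own mRNA need not follow its output.

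The cells were RT4, a long-established line from a human bladder tumour, sequenced in 2 RNA-seq experiments of 6 libraries. The first compared cells given an empty Flag vector (vector, 3 libraries) with cells that received the plasmid of Flag-tagged ITGB4 (plasmid, 3 libraries), all in McCoy's 5A medium with 10% serum. The second compared wild-type parental RT4 given PBS (3 libraries) with the cisplatin-resistant derivative RT4R given cisplatin (resistant, 3 libraries), all in MEM with 10% serum. Every resistant library was given cisplatin and no parental library was, so resistance and exposure to the drug cannot be told apart. Changes called resistant below cover both. The study compared these groups around ITGB4, the integrin beta 4 subunit, and the response of bladder cancer cells to cisplatin. No dose, time or clone is given for either experiment, and nothing states that the 3 libraries of a group came from separate cultures, so the p-values rest on a spread that may be technical.

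Total counts ran from 22701466 to 33352045 per library in the first experiment and from 31824582 to 38199946 in the second. ITGB4 itself was at 858, 879 and 871 CPM (counts per 1e6 library counts, scaled by edgeR's TMM factors) in the vector libraries and at 1485, 1379 and 1416 CPM in the plasmid libraries (log2 fold change 0.71 ± 0.026, adjusted p = 2.22e-13). In the second experiment it was at 602, 598 and 600.3 CPM in parental libraries and 848, 831 and 832 CPM in resistant libraries (log2 fold change 0.48 ± 0.033, adjusted p = 1.45e-09). The label text of vector and plasmid libraries 2 and 3 names ITGB5 and ITGB6 where the titles name ITGB4. Of 12 urothelial markers, 10 were above 1 CPM in every group, with KRT20 listed at 0, and none of 7 leukocyte markers reached 1 CPM in any group. Summed urothelial marker levels were 3637 to 3744 CPM in the vector libraries against 4516 to 4800.2 CPM with the plasmid, and 4194 to 4221 CPM in parental libraries against 4541 to 5178 CPM in resistant libraries. Of the 10 tested, 6 were higher and 3 lower with the plasmid, and 4 were higher and 5 lower in resistant cells, where KRT7 and KRT8 rose (log2 fold change 0.44 and 0.35) and UPK1B fell (-1.29). The resistant changes of the 10 ran from -1.29 to 1.62, with 1 marker higher and 1 lower past 1.5-fold. Of 8 fibroblast markers, COL3A1 and COL1A1 were above 1 CPM in the first experiment and COL1A1 alone in the second. The other 6 (DCN, LUM, PDGFRA, PDGFRB, THY1 and COL1A2) held at most 9 counts in a group. COL3A1 fell from 45.9 ± 2.21 CPM with the vector to 18.2 ± 0.64 CPM with the plasmid (SD, n = 3) and COL1A1 rose (0.77), while COL1A1 fell in resistant cells (-1.32). The 1 other fibroblast marker tested in resistant cells rose (log2 fold change 2.68), at a level below 1 CPM. Levels summed over the 8 were 48.3 to 52.3 CPM with the vector, 24.5 to 26.1 CPM with the plasmid, 11.54 to 12.02 CPM in parental and 4.43 to 5.73 CPM in resistant libraries. Of 5 endothelial markers, VWF alone was above 1 CPM, and summed levels were 2.31 to 2.36 CPM with the vector, 1.73 to 1.85 CPM with the plasmid, 1.23 to 1.67 CPM in parental and 0.71 to 2.56 CPM in resistant libraries. The part of these shifts in the results was not tested, and fewer cells of a type cannot be told apart from less RNA per cell in bulk RNA. The parental columns carry the heading NC, so their group rests on being the only other 3 columns of that table. They are called libraries a, b and c, and they correlated with the vector libraries at Pearson's r of 0.855 to 0.857 across 8882 genes, against 0.998 or more among themselves.

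ATF4 with a C/EBP partner binds the C/EBP-ATF response element, whose core was searched as TGATGNAA on both strands. RefSeq promoter windows of 300 bases, from 250 before to 50 after each annotated start (GRCh38.p14), were found for 35 of the 41 genes. The core was present in 8 of these 35 windows (22.9%), against 1270 of all 35116 windows in the RefSeq table (3.62%). Only the first listed window of each member was searched, while the share of all windows counts every window, so these shares rest on unlike units. The 8 matches are shown because they mark which members hold the core close to the start, and they are written 5′ to 3′ on the strand of the gene with the match in capitals. Capitals that begin with TT mark a core on the opposite strand.
CHAC1, chr15:40953236-40953295, plus strand: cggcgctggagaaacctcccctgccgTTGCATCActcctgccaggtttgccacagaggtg
ASNS, chr7:97872443-97872502, minus strand: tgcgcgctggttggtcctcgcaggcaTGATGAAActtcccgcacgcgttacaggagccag
AARS1, chr16:70289660-70289719, minus strand: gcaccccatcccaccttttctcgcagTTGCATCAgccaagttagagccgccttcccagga
CARS1, chr11:3057418-3057447, minus strand: ggcgcgacttccggggcggcggTTGCATCA
MARS1, chr12:57488042-57488071, plus strand: agaagcgggaggccggttccggTTGCATCA
NARS1, chr18:57621815-57621844, minus strand: gcgccctcagatctacgctctcTGATGCAA
SLC3A2, chr11:62881714-62881743, plus strand: ctgaagtaatgtgcaggactccTTACATCA
SLC7A1, chr13:29595674-29595703, minus strand: gggcgggggccgggcgcactgcTGATGAAA
The same TTGCATCA letters stood in the windows of CHAC1, AARS1, CARS1 and MARS1, and TGATGAAA in those of ASNS and SLC7A1. The letters of the NARS1 match are those of CHAC1, AARS1, CARS1 and MARS1 read on the other strand. The match began at base -209 from the annotated start in CHAC1, at -187 in AARS1 and at -68 in ASNS. In CARS1 and MARS1 it began at -2 and -4, so that it ran across the start itself. By role, 4 of 9 windows of tRNA charging and export genes held the core, 2 of 6 of the transporters, 1 of 5 of the other amino acid enzymes, 1 of 6 of the feedback genes, and none of 3 windows of serine and one-carbon enzymes or of 6 windows of transcription factors. A match is a description of these letters in this window, and its absence says nothing about binding elsewhere. The plasmid change of the 8 genes with the core had a median log2 fold change of -0.23 (5 lower, 1 higher), and that of the 27 without it -0.61 (20 lower, 4 higher). In resistant cells the medians were 0.05 with the core (4 higher, 3 lower) and 0.24 without it (16 higher, 5 lower).

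With the ITGB4 plasmid, 30 of the 41 genes were lower than with the vector, 6 were higher and 5 did not pass the test. The fall took in all 5 serine and one-carbon enzymes and all 7 amino acid transporters, and the largest changes were those of SLC1A4 (log2 fold change -2.54), CTH (-2.36) and PSAT1 (-1.73). ATF4 mRNA did not pass the test, and CHAC1, WARS1 and NUPR1 rose by more than 1.5-fold. Calls are at a Benjamini-Hochberg adjusted p under 0.05 in edgeR's quasi-likelihood test over all genes, and the value after each ± is the standard error implied by that test. In this experiment 72.2% of the 16950 genes tested were called, 35.7% lower and 36.5% higher. Of the members, 73.2% were lower and 14.6% higher. Their median log2 fold change was -0.58, against 0.0017 over all genes. In edgeR's test for a change over 1.5-fold, 17 members were lower and 3 higher (48.8%), beside 11.4% and 11.1% of all genes (22.5% in either direction). In 31 members every plasmid library lay below every vector library and in 6 every plasmid library lay above, where 37.1% and 37.4% of all genes did so. The summed level of the 41 genes was 14327, 14423 and 14328 CPM in the vector libraries and 10066, 10026 and 10062 CPM in the plasmid libraries.

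In resistant cells, 25 of the 41 genes were higher than in parental cells, 9 were lower and 7 did not pass the test. The rises were mostly small: 5 passed 1.5-fold, and these were CTH (log2 fold change 1.78), NUPR1 (0.96), PYCR1 (0.88), TRIB3 (0.86) and SLC1A4 (0.80). No member fell past 1.5-fold. Of the 16875 genes tested, 54.5% were called, 26.8% higher and 27.7% lower, beside 61% and 22% of the members. The share over 1.5-fold was 12.2% of the members and 12.5% of all genes in either direction. All 5 members past it were higher, beside 6.17% of all genes higher and 6.31% lower. The median log2 fold change of the 41 members was 0.22, against 0.018 over all genes. Scaled by library size alone, 31 members were higher, 5 lower and 10 past 1.5-fold, beside 38.8%, 18.4% and 14.2% of all genes, and the median of all genes rose to 0.18 and that of the members to 0.38, a gap of 0.20 under either scaling. Of the members called, 73.5% were higher by TMM and 86.1% by library size. In 23 members every resistant library lay above every parental library and in 9 every one lay below, where 30.3% and 30.5% of all genes did so. The summed level of the 41 genes was 15985, 15861 and 15944 CPM in the parental libraries and 16772, 16806 and 16346 CPM in the resistant libraries.

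**Figure D1:**
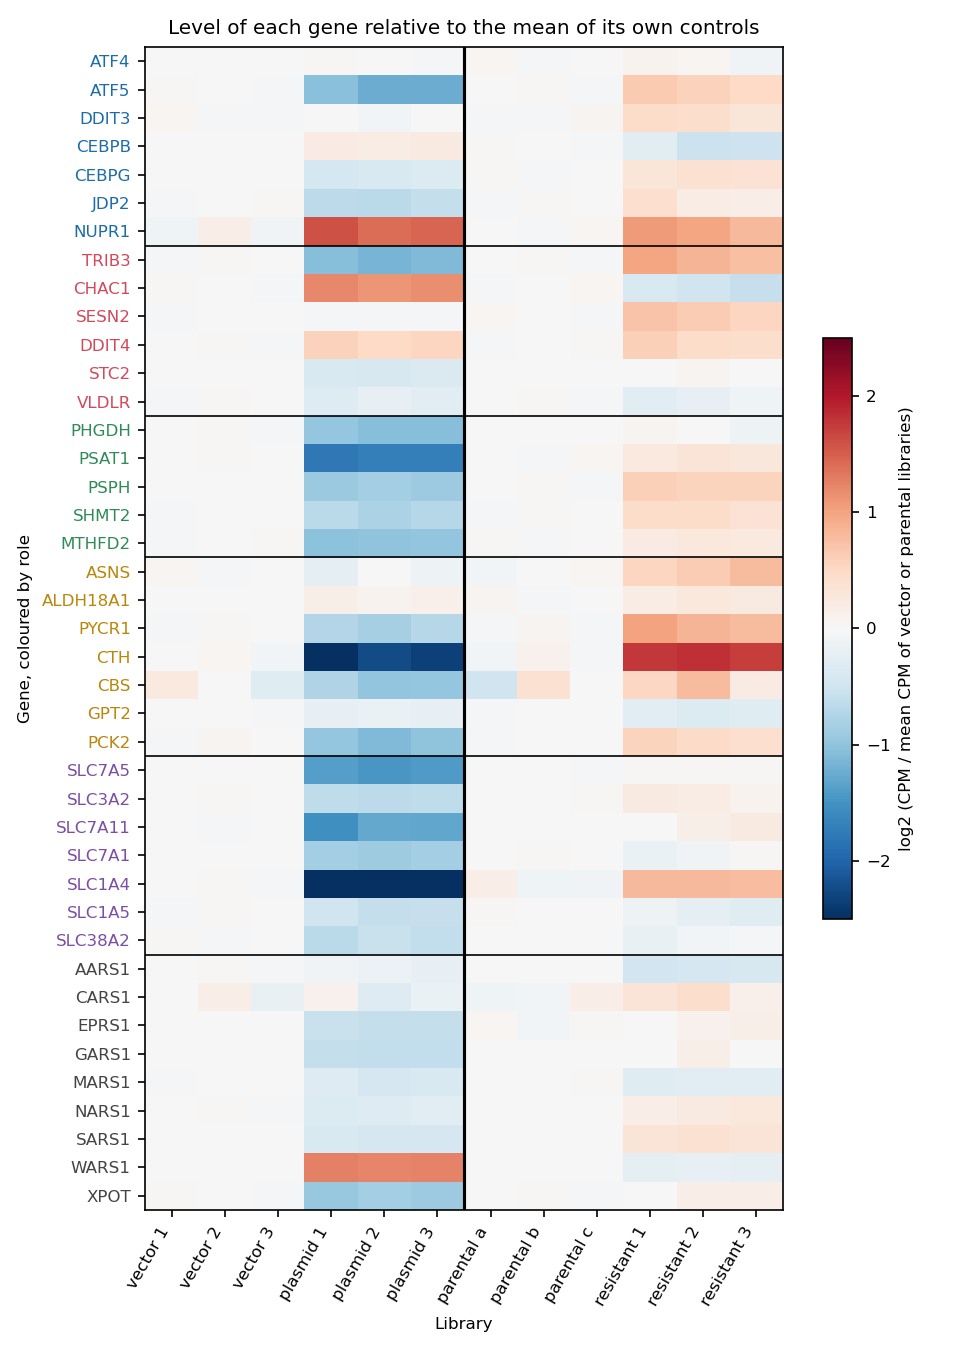
Level of each of the 41 genes in each library, as log2 of its CPM over the mean CPM of its own controls (vector for the plasmid libraries, parental for the resistant libraries); blue is lower, red higher, and gene names are coloured by role. The plasmid libraries are mostly blue, with NUPR1, CHAC1 and WARS1 in red, and the resistant libraries are mostly pale red. Colours saturate at 2.5 in either direction, which SLC1A4 and CTH pass, though not in every plasmid library.

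**Figure D2:**
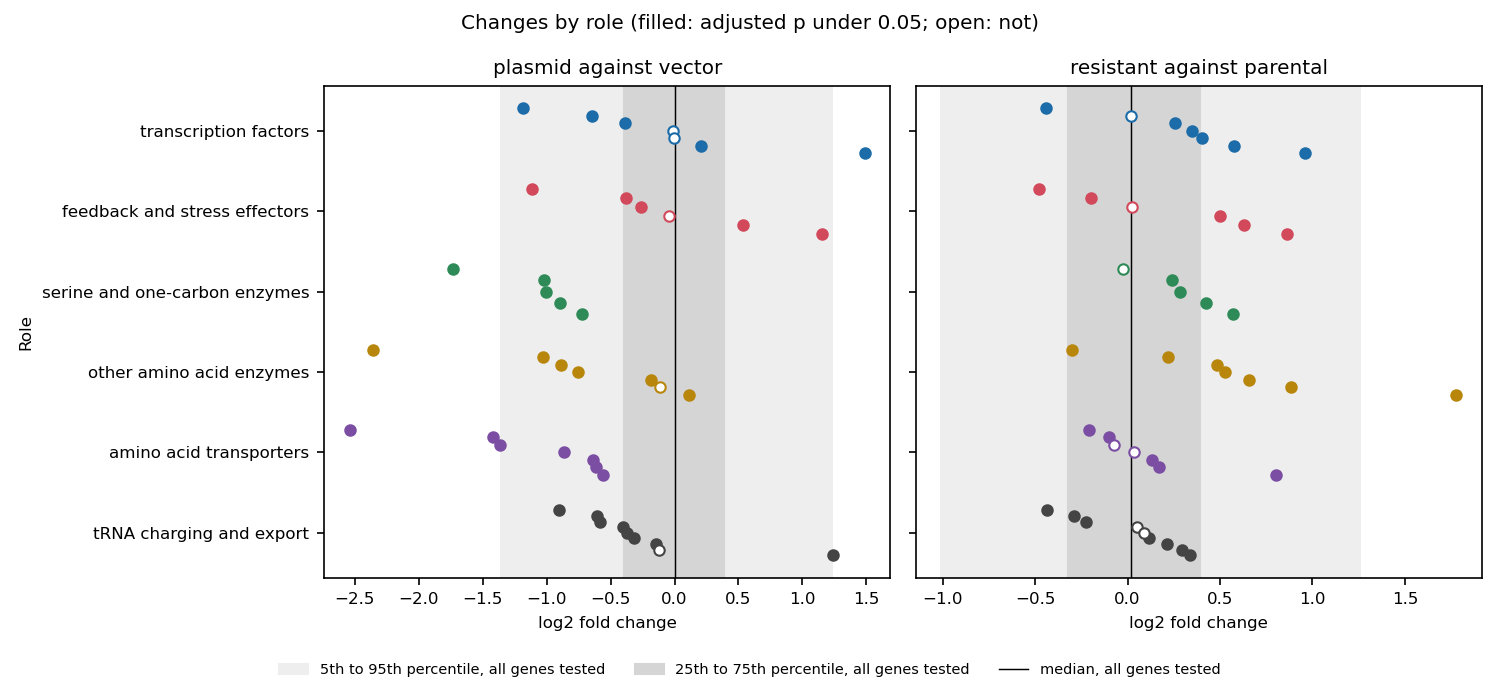
Log2 fold change of each member by role, in both comparisons; filled points passed adjusted p under 0.05, and the bands show where all tested genes lie. With the plasmid, the 5 serine and one-carbon enzymes and the 7 transporters lie left of the middle band, while the resistant changes lie mostly inside or just right of it.

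Among the transcription factors, ATF5, JDP2 and CEBPG fell with the plasmid, CEBPB and NUPR1 rose, and ATF4 and DDIT3 did not pass the test. In resistant cells ATF5, DDIT3, CEBPG, JDP2 and NUPR1 rose, CEBPB fell, and ATF4 again did not pass. ATF4 (chr22:39519695-39522685 on the plus strand, GRCh38, positions from GENCODE 29), the central factor of the response, was at 662, 659.8 and 663 CPM in the vector libraries and 674, 655 and 647 CPM in the plasmid libraries. The groups overlapped (log2 fold change -0.0064 ± 0.023, adjusted p = 0.818). Parental libraries held 864, 821 and 825 CPM and resistant libraries 885, 866 and 789.8 CPM, again overlapping (log2 fold change 0.018 ± 0.042, adjusted p = 0.745). Scaled by library size alone, the resistant value was 0.18 and passed the test (adjusted p = 0.000801).

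ATF5 (chr19:49928702-49933935 on the plus strand), a relative of ATF4 that is also raised in stress, was at 70.3, 69.5 and 67.8 CPM with the vector and 33.4, 29.1 and 29.1 CPM with the plasmid. Every plasmid library was lower (log2 fold change -1.18 ± 0.046, adjusted p = 4.48e-13). Resistant libraries, at 152, 145 and 137 CPM, were all above parental libraries, at 96.8, 98.8 and 95.5 CPM (log2 fold change 0.58 ± 0.048, adjusted p = 1.72e-08). The exons of ATF5 overlap those of IL4I1 and NUP62 on the opposite strand over 23.7% of their length, and counting in the first experiment was not stranded per the file header. IL4I1 had 593, 671 and 776 counts with the vector and 1031, 977 and 1369 with the plasmid, and went from 11159, 10348 and 11011 counts in parental to 4821, 4590 and 4829 in resistant libraries. IL4I1 moved against ATF5 in each experiment, and its part in the ATF5 values was not tested.

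DDIT3, which encodes CHOP, a factor tied to stress-induced cell death, stood at 28.8, 27.1 and 26.96 CPM with the vector and 27.7, 26.5 and 27.6 CPM with the plasmid. These groups overlapped (log2 fold change -0.015 ± 0.046, adjusted p = 0.786). In resistant cells DDIT3 was at 71.4, 70.9 and 64.5 CPM, above the 50.7, 51.1 and 54.5 CPM of parental cells in every library (log2 fold change 0.40 ± 0.057, adjusted p = 1.18e-05). Its exons overlap AC022506.1 on the same strand and MARS1 and MBD6 on the opposite strand over 39.6% of their length. CEBPB, a C/EBP factor and possible ATF4 partner, went from 135, 135 and 135 to 156, 153 and 158 CPM with the plasmid (log2 fold change 0.21 ± 0.027, adjusted p = 2.8e-06). It was lower in all resistant libraries, at 277, 233 and 235 CPM, than in parental libraries, at 343, 338 and 331 CPM (log2 fold change -0.44 ± 0.054, adjusted p = 2.21e-06). CEBPB was the only factor of the 7 that rose with the plasmid and fell in resistant cells.

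CEBPG, a C/EBP protein that pairs with ATF4, moved the other way. It was at 102, 104 and 104 CPM with the vector and 76.3, 79.7 and 81.01 CPM with the plasmid (log2 fold change -0.38 ± 0.032, adjusted p = 9.33e-09), and at 157, 150.2 and 154 CPM in parental and 189, 199 and 198 CPM in resistant libraries (log2 fold change 0.35 ± 0.042, adjusted p = 1.78e-06). JDP2, a dimerization partner of AP-1 proteins, was at 61.7, 63.7 and 64.2 CPM with the vector and 40.2, 39.4 and 41.6 CPM with the plasmid (log2 fold change -0.64 ± 0.037, adjusted p = 7.27e-11). In resistant libraries JDP2 was at 108, 92.6 and 90.6 CPM against 79.2, 83.3 and 80.8 CPM (log2 fold change 0.26 ± 0.061, adjusted p = 0.00157). For both genes no library crossed between groups in either experiment.

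NUPR1 (chr16:28532708-28539174 on the minus strand), a small stress-induced chromatin protein, rose in each experiment. It was low in the first, at 3.23, 3.93 and 3.28 CPM with the vector and 10.5, 9.23 and 9.61 CPM with the plasmid (log2 fold change 1.49 ± 0.10, adjusted p = 6.64e-10). Levels in the second were 72.2, 70.3 and 74.7 CPM in parental and 152, 143 and 128 CPM in resistant libraries (log2 fold change 0.96 ± 0.059, adjusted p = 3.22e-10). NUPR1 was the only member past 1.5-fold upward in both comparisons.

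Of the 6 feedback and stress effectors, TRIB3, STC2 and VLDLR fell with the plasmid and CHAC1 and DDIT4 rose. TRIB3, SESN2 and DDIT4 rose in resistant cells and CHAC1 and VLDLR fell. TRIB3 (chr20:362835-397559 on the plus strand), a pseudokinase that restrains ATF4, was at 291, 306 and 299.98 CPM with the vector and at 143, 133 and 139 CPM with the plasmid. All 3 plasmid libraries were below all 3 vector libraries (log2 fold change -1.11 ± 0.031, adjusted p = 4.62e-15). Parental libraries held 272, 277 and 267 CPM and resistant libraries 536, 489 and 459 CPM, with no overlap (log2 fold change 0.86 ± 0.049, adjusted p = 1.05e-10). CHAC1 (chr15:40952962-40956519 on the plus strand), a glutathione-degrading enzyme whose promoter window holds the core, did the reverse. It went from 51.8, 50.7 and 50.04 CPM with the vector to 116, 109 and 113 CPM with the plasmid (log2 fold change 1.15 ± 0.034, adjusted p = 1.19e-14). In resistant cells it was at 212, 196 and 186 CPM, below the 268, 275 and 284 CPM of every parental library (log2 fold change -0.48 ± 0.047, adjusted p = 1.61e-07).

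SESN2 (sestrin 2, a leucine sensor that holds back mTORC1) differed little with the plasmid, at 159, 164 and 164 CPM against 158, 158 and 157 CPM. The libraries did not overlap, but the change did not pass the test (log2 fold change -0.043 ± 0.027, adjusted p = 0.16). It rose in resistant cells, from 260.3, 253 and 246 to 413, 396 and 368 CPM (log2 fold change 0.63 ± 0.045, adjusted p = 2.18e-09). DDIT4 (REDD1, another brake on mTORC1) rose in each experiment. Its levels were 172, 177 and 169 CPM with the vector and 258, 243 and 249.8 CPM with the plasmid (log2 fold change 0.54 ± 0.029, adjusted p = 4.51e-11), and 659, 674 and 685 CPM in parental and 1013, 928 and 918 CPM in resistant libraries (log2 fold change 0.50 ± 0.04, adjusted p = 9.24e-09). The antisense gene DDIT4-AS1 overlaps 41.2% of its exon length.

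STC2, a secreted glycoprotein, fell with the plasmid from 499.5, 503 and 500.4 to 386, 381 and 389.9 CPM (log2 fold change -0.38 ± 0.023, adjusted p = 2.08e-10). Parental libraries, at 454, 448 and 453 CPM, overlapped resistant libraries, at 452, 471 and 457 CPM (log2 fold change 0.027 ± 0.036, adjusted p = 0.555). By library size alone the STC2 change was 0.19 and passed (adjusted p = 0.000189). VLDLR, a lipoprotein receptor, was slightly lower in both comparisons, with log2 fold changes of -0.26 ± 0.038 with the plasmid (adjusted p = 1.07e-05) and -0.20 ± 0.063 in resistant cells (adjusted p = 0.014). Its libraries ran from 59.8 to 62.8 CPM with the vector, 49.4 to 53.7 CPM with the plasmid, 42.6 to 44.3 CPM in parental and 35.5 to 40.2 CPM in resistant cells, and the resistant call was lost without parental library b (adjusted p = 0.0543) and by library size alone (0.699).

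**Figure D3:**
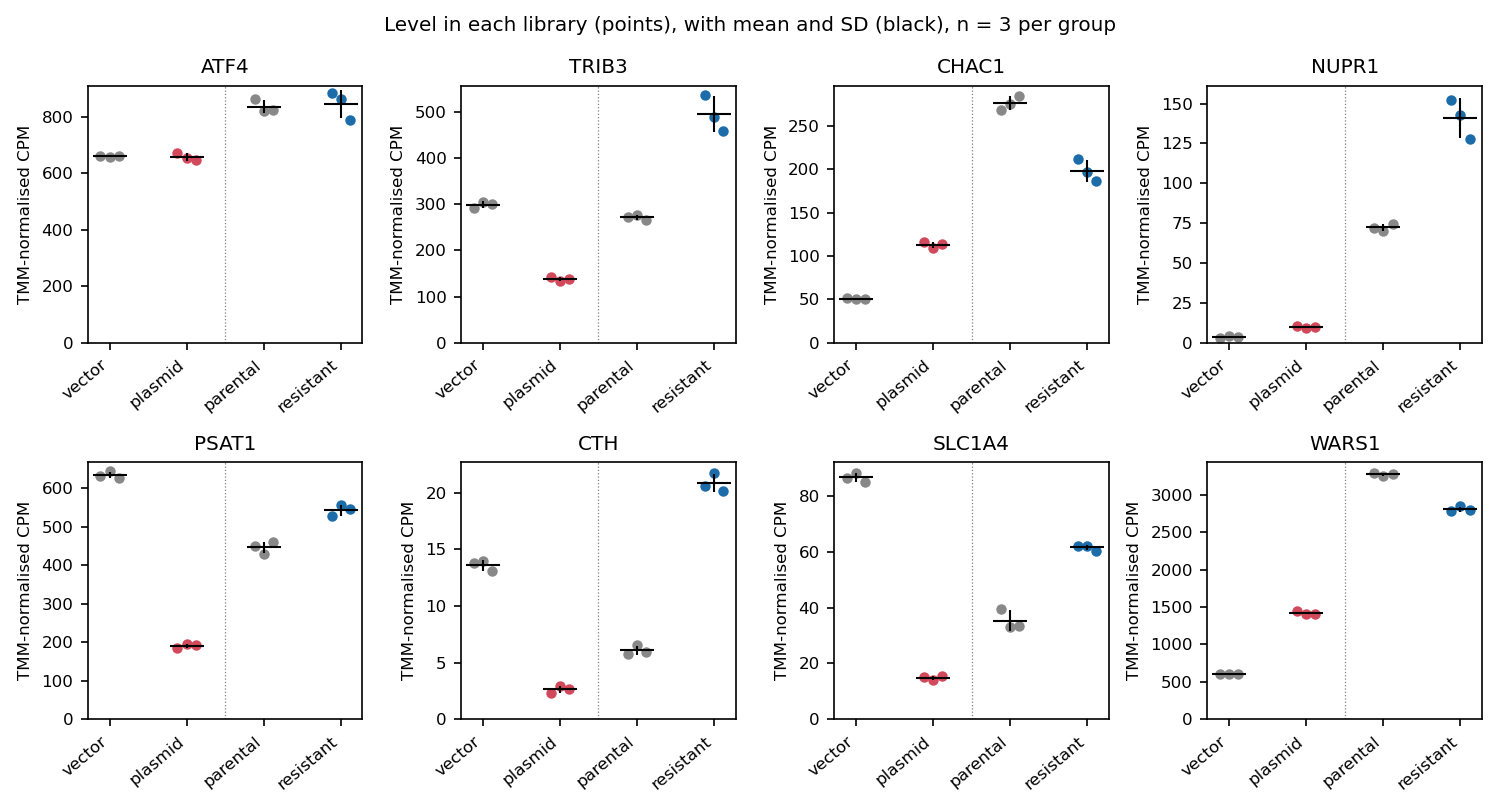
TMM-scaled CPM of 8 members in each library (points) with group mean and SD (black), n = 3 per group; each panel starts at 0 and the dotted line parts the 2 experiments. ATF4 is level within each experiment, TRIB3, PSAT1, CTH and SLC1A4 drop with the plasmid and are higher in resistant cells, CHAC1 and WARS1 do the reverse, and NUPR1 is higher in both.

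All 5 enzymes that make serine or pass on its carbon fell with the plasmid past 1.5-fold, and 4 of the 5 rose in resistant cells, each by less than 1.5-fold. Their summed level was 1977, 2022 and 1997 CPM with the vector and 929, 910 and 920.5 CPM with the plasmid. In parental libraries it was 1621, 1603 and 1633 CPM, and in resistant libraries 1975, 1998 and 1931 CPM. PHGDH, the first enzyme of serine synthesis, was at 417, 423 and 410.2 CPM with the vector and 215, 201 and 200.4 CPM with the plasmid (log2 fold change -1.02 ± 0.029, adjusted p = 8.1e-15). Resistant libraries, at 299, 283 and 262 CPM, overlapped parental libraries, at 286, 285 and 287 CPM (log2 fold change -0.025 ± 0.046, adjusted p = 0.67), and by library size alone the change was 0.14 and passed (adjusted p = 0.0127). PHGDH was thus the one enzyme of the group whose direction in resistant cells turned with the scaling.

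PSAT1 (chr9:78297143-78330093 on the plus strand), the aminotransferase of the second step, showed the largest fall of the 5. It was at 633, 644 and 627 CPM with the vector and 184, 195 and 193 CPM with the plasmid (log2 fold change -1.73 ± 0.027, adjusted p = 3.27e-18), and 2.87% of all genes had a lower value. In resistant cells PSAT1 rose from 449.6, 430.5 and 459 to 528, 556 and 546 CPM (log2 fold change 0.28 ± 0.038, adjusted p = 6.81e-06). PSPH, the phosphatase of the last step, was at 114, 115 and 116 CPM with the vector and 60.8, 63.5 and 60.9 CPM with the plasmid (log2 fold change -0.90 ± 0.031, adjusted p = 1e-13). Its resistant libraries, at 147, 142 and 143 CPM, were all above the parental ones, at 97.9, 98.6 and 93.9 CPM (log2 fold change 0.57 ± 0.044, adjusted p = 7.13e-09). Of the 3 synthesis enzymes PSPH rose most in resistant cells and PSAT1 fell most with the plasmid.

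SHMT2, the mitochondrial enzyme that splits serine into glycine and a one-carbon unit, was at 428, 443 and 443 CPM with the vector and 275, 254 and 267 CPM with the plasmid (log2 fold change -0.72 ± 0.029, adjusted p = 8.27e-13). It was at 407, 424 and 419.7 CPM in parental and 570.1, 573 and 538 CPM in resistant libraries (log2 fold change 0.43 ± 0.038, adjusted p = 4.36e-08). MTHFD2, the mitochondrial folate enzyme that acts next, was at 385, 397 and 401 CPM with the vector and 194, 197 and 199 CPM with the plasmid (log2 fold change -1.003 ± 0.026, adjusted p = 2.42e-15). Levels of MTHFD2 were 380.3, 365 and 373 CPM in parental and 431, 445 and 442 CPM in resistant libraries (log2 fold change 0.24 ± 0.037, adjusted p = 2.89e-05). No library of either gene crossed between groups.

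Among the 7 other amino acid enzymes, CTH, PCK2, CBS, PYCR1 and GPT2 fell with the plasmid, ALDH18A1 rose and ASNS did not pass. In resistant cells 6 rose and GPT2 fell. CTH (chr1:70411218-70439851 on the plus strand), which makes cysteine from cystathionine, had the second largest fall of the 41 genes. It was at 13.8, 13.99 and 13.05 CPM with the vector and 2.33, 2.90 and 2.68 CPM with the plasmid (log2 fold change -2.36 ± 0.093, adjusted p = 5.52e-13). It also had the largest rise in resistant cells, from 5.79, 6.51 and 5.95 to 20.6, 21.7 and 20.2 CPM (log2 fold change 1.78 ± 0.094, adjusted p = 4.83e-11). CBS, which makes cystathionine, was at 34.99, 29.9 and 24.1 CPM with the vector and 17.7, 15.04 and 15.3 CPM with the plasmid (log2 fold change -0.89 ± 0.10, adjusted p = 9e-07). Its parental libraries, at 19.1, 35.04 and 27.1 CPM, overlapped resistant libraries, at 38.9, 46.6 and 31.2 CPM (log2 fold change 0.53 ± 0.16, adjusted p = 0.00976), and the call was lost without parental library a (adjusted p = 0.0652), without resistant library 2 (0.0872) and in DESeq2 (0.13). The plasmid change of CBS was past 1.5-fold in edgeR (adjusted p = 0.00684) but not in DESeq2 (0.401), limma-voom (0.0504) or the fit of all 12 libraries (0.0712). CBS shares nearly its whole sequence with the copy CBSL, which held 13 to 116 counts per library, so its counts are uncertain.

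PCK2, the mitochondrial enzyme that makes phosphoenolpyruvate, was at 201, 219 and 207 CPM with the vector and 106.7, 97.9 and 104 CPM with the plasmid (log2 fold change -1.02 ± 0.037, adjusted p = 1.43e-13). Resistant libraries, at 329, 313 and 300.4 CPM, were all above parental libraries, at 219, 228 and 227 CPM (log2 fold change 0.48 ± 0.042, adjusted p = 3.25e-08). PYCR1, the last enzyme of mitochondrial proline synthesis, was at 52.7, 55.6 and 54.00 CPM with the vector and 32.6, 30.4 and 33.1 CPM with the plasmid (log2 fold change -0.75 ± 0.041, adjusted p = 4.48e-11). It rose past 1.5-fold in resistant cells, from 71.7, 77.3 and 71.9 to 147, 133 and 127 CPM (log2 fold change 0.88 ± 0.057, adjusted p = 6.86e-10). ALDH18A1, which starts proline synthesis, moved far less, with log2 fold changes of 0.12 with the plasmid (adjusted p = 0.00337) and 0.22 in resistant cells (adjusted p = 0.00106). Its levels ran from 72.3 to 81.0 CPM in the first experiment and from 80.8 to 100.2 CPM in the second.

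GPT2, a mitochondrial alanine aminotransferase, was lower in both comparisons, with log2 fold changes of -0.19 (adjusted p = 2.14e-05) and -0.30 (adjusted p = 4.63e-06) and levels between 102 and 233 CPM. ASNS, asparagine synthetase and a standard ATF4 target, was scarce in these tables. It was at 4.22, 4.001 and 4.08 CPM with the vector and 3.45, 4.15 and 3.77 CPM with the plasmid, and these overlapped (log2 fold change -0.11 ± 0.11, adjusted p = 0.383). It rose in resistant cells from 6.82, 7.23 and 7.46 to 10.4, 11.1 and 12.4 CPM (log2 fold change 0.65 ± 0.11, adjusted p = 7.18e-05). The gene AC079781.5 on the same strand covers 44.6% of its exon length and held 139, 137 and 155 counts with the vector and 54, 68 and 58 with the plasmid. AC079781.5 had 36 to 48 counts in parental and 28 to 53 in resistant libraries, so the level and the change of ASNS are uncertain.

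All 7 amino acid transporters fell with the plasmid, 5 of them past 1.5-fold, while resistant cells split, with 3 higher, 2 lower and 2 that did not pass. Their summed level was 5907, 5884 and 5905 CPM with the vector and 3045, 3167 and 3157 CPM with the plasmid. In the second experiment the sums overlapped, at 4027, 3994 and 3991 CPM in parental and 4013, 4043 and 3995 CPM in resistant libraries. SLC1A4 (chr2:64988477-65023865 on the plus strand), a carrier of alanine, serine and cysteine, had the largest fall of all 41 genes. It was at 86.6, 88.3 and 85.1 CPM with the vector and 15.1, 14.1 and 15.4 CPM with the plasmid (log2 fold change -2.54 ± 0.042, adjusted p = 7.2e-18). In resistant cells it rose from 39.6, 32.9 and 33.4 to 62.03, 62.2 and 60.3 CPM (log2 fold change 0.80 ± 0.069, adjusted p = 2.76e-08), and the rise was past 1.5-fold with all libraries (adjusted p = 0.007) but not without parental library b (0.0575) or c (0.05).

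SLC7A5, the LAT1 carrier of large neutral amino acids, was at 749, 764 and 759 CPM with the vector and 290.2, 275 and 283 CPM with the plasmid (log2 fold change -1.42 ± 0.026, adjusted p = 1.81e-17). Parental libraries held 624, 622 and 607 CPM and resistant libraries 634, 632 and 629.7 CPM, a change that did not pass (log2 fold change 0.033 ± 0.034, adjusted p = 0.434). Every resistant library still lay above every parental library, and by library size alone the change was 0.20 and passed (adjusted p = 7.37e-05). SLC3A2 encodes the heavy chain that takes LAT1 and xCT to the membrane, and its promoter window holds the core. It was at 569, 587 and 569 CPM with the vector and 373, 364 and 373 CPM with the plasmid (log2 fold change -0.64 ± 0.024, adjusted p = 3.69e-13), and at 912, 917 and 935 CPM in parental and 1077, 1047 and 979 CPM in resistant libraries (log2 fold change 0.17 ± 0.038, adjusted p = 0.00108). The plasmid change of SLC3A2 was past 1.5-fold with all libraries (adjusted p = 0.0295) but not without vector library 2 (0.143), plasmid library 2 (0.126) or plasmid library 3 (0.057). It was also not past 1.5-fold in DESeq2 (0.207), in limma-voom (0.0923), with no low-count filter (0.0657) or with the replicate block (0.0656).

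SLC7A11, the xCT exchanger that brings in cystine, was at 1762, 1716 and 1758 CPM with the vector and 603, 719.6 and 709.9 CPM with the plasmid (log2 fold change -1.36 ± 0.046, adjusted p = 6.08e-14). It was at 476, 477 and 472 CPM in parental and 479.7, 527 and 555 CPM in resistant libraries (log2 fold change 0.13 ± 0.045, adjusted p = 0.0206). That call was lost when parental library a, b or c or resistant library 2 or 3 was left out (adjusted p between 0.068 and 0.0824). The antisense gene SLC7A11-AS1 fell alongside it with the plasmid, from 859, 883 and 1021 to 309, 432 and 499 counts. SLC7A11-AS1 held 73, 102 and 96 counts in parental and 41, 63 and 106 in resistant libraries. It overlaps 8.97% of the exon length of SLC7A11, and counting in the first experiment was not stranded. Whether reads of SLC7A11 were counted in SLC7A11-AS1 was not tested. SLC7A1, a carrier of cationic amino acids with the core just after its start, was at 283, 288 and 283 CPM with the vector and 157, 154 and 158 CPM with the plasmid (log2 fold change -0.86 ± 0.026, adjusted p = 1.47e-14). Its parental libraries, at 207, 214 and 207 CPM, overlapped the resistant ones, at 186, 197 and 213 CPM (log2 fold change -0.075 ± 0.048, adjusted p = 0.204).

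SLC1A5, the ASCT2 glutamine carrier, fell in both comparisons. It was at 961, 994 and 979 CPM with the vector and 690.3, 644 and 653 CPM with the plasmid (log2 fold change -0.56 ± 0.027, adjusted p = 8.12e-12), and at 871, 847 and 843 CPM in parental and 787, 731 and 695 CPM in resistant libraries (log2 fold change -0.21 ± 0.042, adjusted p = 0.000351), the last call being lost by library size alone (adjusted p = 0.331). SLC38A2, the SNAT2 carrier of small neutral amino acids, ran from 1447 to 1497 CPM with the vector and from 917 to 997 CPM with the plasmid (log2 fold change -0.62 ± 0.028, adjusted p = 3.1e-12). In resistant libraries it was at 786 to 863 CPM against 883 to 897 CPM (log2 fold change -0.10 ± 0.038, adjusted p = 0.0336), and by library size alone the direction turned (0.065, adjusted p = 0.166). The SLC38A2 call in resistant cells was lost in 8 settings, 4 of which left out 1 library.

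Of the 9 genes of tRNA charging and export, 7 fell with the plasmid and WARS1 rose, and in resistant cells 4 rose and 3 fell. WARS1 (chr14:100333788-100376805 on the minus strand), the tryptophanyl-tRNA synthetase, which interferons also induce, went from 604, 599 and 599 CPM with the vector to 1441, 1405 and 1411 CPM with the plasmid (log2 fold change 1.24 ± 0.022, adjusted p = 1.33e-17). Resistant libraries, at 2777, 2845 and 2792 CPM, were below parental libraries, at 3291, 3254 and 3282 CPM (log2 fold change -0.22 ± 0.028, adjusted p = 2.35e-06), a call lost by library size alone (adjusted p = 0.0709). The summed level of the 9 genes, WARS1 included, was 3651, 3677 and 3626 CPM with the vector and 3618, 3545 and 3550.4 CPM with the plasmid, so the groups did not overlap. In the second experiment it was 6080.04, 6012 and 6075 CPM in parental and 5457, 5689 and 5569.9 CPM in resistant libraries, all of them lower. WARS1 weighs heavily in these sums, at a mean of 601 CPM with the vector, 1419 with the plasmid, 3276 in parental and 2805 in resistant libraries. The median log2 fold change of the 9 genes was -0.38 with the plasmid and 0.09 in resistant cells. XPOT, which exports tRNAs from the nucleus, was at 671, 658 and 649 CPM with the vector and 339.6, 363 and 353 CPM with the plasmid (log2 fold change -0.90 ± 0.027, adjusted p = 1.64e-14). It stood at 428, 437 and 423 CPM in parental and 435, 479 and 480.2 CPM in resistant libraries (log2 fold change 0.11 ± 0.042, adjusted p = 0.0296), and these overlapped. The resistant call of XPOT was lost in 5 of the fits that left out 1 library (adjusted p between 0.0652 and 0.132).

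GARS1, the glycyl-tRNA synthetase, was at 604, 614 and 609 CPM with the vector and 401, 399.6 and 397 CPM with the plasmid (log2 fold change -0.61 ± 0.023, adjusted p = 2.65e-13). Parental libraries, at 551, 539.6 and 549 CPM, overlapped resistant ones, at 553, 602 and 546 CPM (log2 fold change 0.053 ± 0.04, adjusted p = 0.287). By library size alone the GARS1 change was 0.22 and passed (adjusted p = 0.000151). EPRS1, which charges both glutamate and proline, was at 304, 309 and 303 CPM with the vector and 208, 201 and 203 CPM with the plasmid (log2 fold change -0.58 ± 0.026, adjusted p = 2.36e-12). Its resistant libraries, at 197, 211 and 219 CPM, overlapped the parental ones, at 202, 187 and 200.02 CPM (log2 fold change 0.09 ± 0.047, adjusted p = 0.119). The EPRS1 change did pass in 3 alternative settings, at log2 fold changes of 0.10 to 0.25 (adjusted p between 0.000197 and 0.0308). SARS1, the seryl-tRNA synthetase, moved in opposite directions. It was at 279, 283 and 282 CPM with the vector and 217, 210.1 and 209.97 CPM with the plasmid (log2 fold change -0.41 ± 0.026, adjusted p = 2.89e-10), and at 312, 316 and 315 CPM in parental and 391, 409 and 392 CPM in resistant libraries (log2 fold change 0.34 ± 0.037, adjusted p = 5.74e-07).

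AARS1, the alanyl-tRNA synthetase, whose promoter window holds the core, fell slightly with the plasmid, from 344, 348 and 337 to 324, 309 and 298 CPM (log2 fold change -0.15 ± 0.03, adjusted p = 0.000367). Its fall in resistant cells was larger, from 479, 469.7 and 472 to 339, 355 and 358 CPM (log2 fold change -0.43 ± 0.037, adjusted p = 2.61e-08). MARS1, the methionyl-tRNA synthetase, was at 472, 487 and 487 CPM with the vector and 384, 361 and 370.3 CPM with the plasmid (log2 fold change -0.38 ± 0.027, adjusted p = 1.82e-09). It was also lower in resistant libraries, at 416, 421 and 419 CPM against 509, 506 and 521 CPM (log2 fold change -0.29 ± 0.035, adjusted p = 1.82e-06). CARS1, the cysteinyl-tRNA synthetase, was at 32.4, 36.3 and 28.4 CPM with the vector and 34.8, 25.8 and 28.8 CPM with the plasmid, with overlap (log2 fold change -0.12 ± 0.09, adjusted p = 0.231). Its resistant libraries, at 53.1, 57.02 and 45.9 CPM, overlapped the parental ones, at 39.2, 40.1 and 47.7 CPM (log2 fold change 0.30 ± 0.083, adjusted p = 0.00589), and that call was lost without resistant library 2 (adjusted p = 0.0516). NARS1, the asparaginyl-tRNA synthetase, ran from 331 to 343 CPM with the vector and 268 to 278 CPM with the plasmid (log2 fold change -0.31 ± 0.026, adjusted p = 1.23e-08), and from 263 to 267 CPM in parental and 295 to 317 CPM in resistant libraries (log2 fold change 0.22 ± 0.04, adjusted p = 0.000176).

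**Figure D4:**
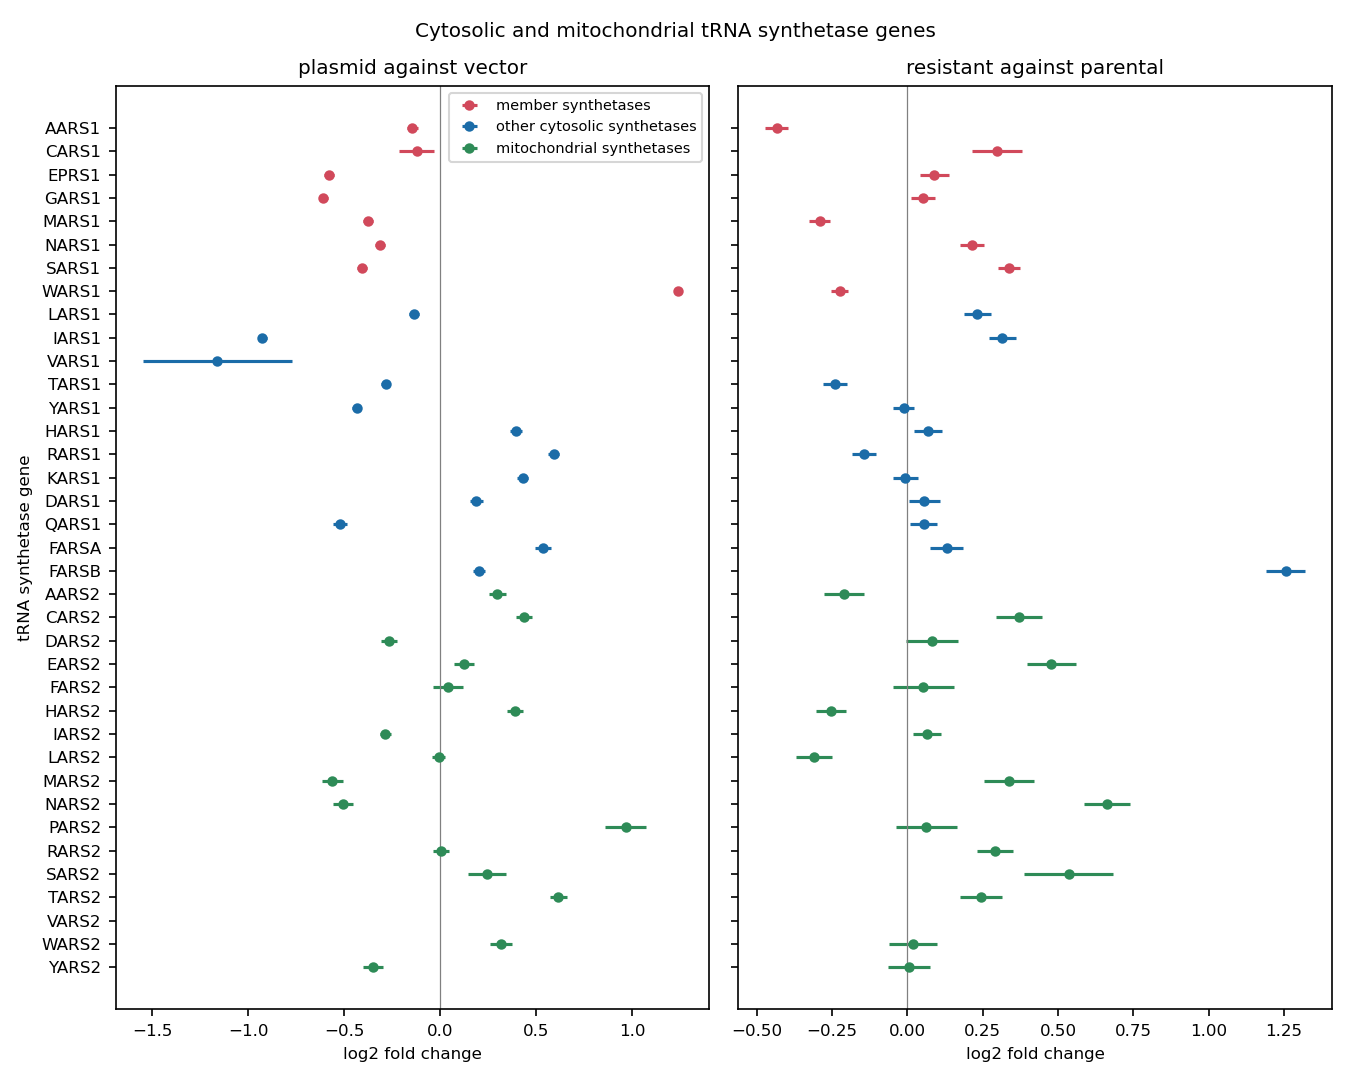
Log2 fold change (point) and its standard error (line) of the tRNA synthetase genes, cytosolic members in red, other cytosolic genes in blue and mitochondrial genes in green, for plasmid against vector and resistant against parental. WARS1 stands alone on the right with the plasmid among the members, and FARSB on the right in resistant cells; a gene with no point, VARS2 among them, was not tested.

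Per kilobase of exon, which allows levels of different genes to be set side by side, the vector libraries held most SLC1A5 (293 CPM per kilobase), PSAT1 (290.02) and ATF4 (263). With the plasmid the order was ATF4 (262 CPM per kilobase), WARS1 (223) and SLC1A5 (199), and PSAT1 was at 87.2. In parental libraries WARS1 led at 515 CPM per kilobase, followed by ATF4 at 333 and DDIT4 at 327. In resistant libraries the first 3 were DDIT4 (463 CPM per kilobase), WARS1 (441) and ATF4 (337). ASNS was among the lowest, at 0.921 CPM per kilobase with the vector and 2.53 in resistant libraries. Exon length was that of the merged GENCODE 29 exons, so a gene expressed as a short isoform is understated. Other genes overlap 44.6% of the exon length of ASNS, 41.2% of that of DDIT4 and 23.8% of that of SLC1A5. The part of these overlaps in the order was not tested.

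The experiments share no library, and the calls of their separate fits were first set side by side. In 18 of the 41 genes (43.9%) the level was lower with the plasmid and higher in resistant cells, beside 13.4% of the 15655 genes tested in both. These were ATF5, CEBPG, JDP2, TRIB3, PSAT1, PSPH, SHMT2, MTHFD2, PYCR1, CTH, CBS, PCK2, SLC3A2, SLC7A11, SLC1A4, NARS1, SARS1 and XPOT, of which SLC7A11, XPOT and CBS lost the resistant call when single libraries were left out, as given above. CEBPB, CHAC1 and WARS1 were higher with the plasmid and lower in resistant cells, beside 16.6% of all genes. NUPR1, DDIT4 and ALDH18A1 were higher in both (7.11% of all genes), and VLDLR, GPT2, SLC1A5, SLC38A2, AARS1 and MARS1 were lower in both (7.72%). Past 1.5-fold in each, TRIB3, PYCR1, CTH and SLC1A4 were lower with the plasmid and higher in resistant cells. Of all genes, 11.4% were lower past 1.5-fold with the plasmid and 6.17% higher in resistant cells. The share of all genes that did both was not computed, so these 4 are named as a description only.

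Set against each other directly in 1 fit of all 12 libraries, the changes differed between the experiments in 36 of the 41 genes (87.8%). Of the 18516 genes tested for it, 61.8% differed. In 31 of the 41 genes the plasmid change differed and lay below the resistant change, beside 31.6% of all genes tested for it. The median difference was -0.76 on the log2 scale, against -0.047 over all genes. CTH differed most (-4.16 ± 0.13, adjusted p = 2.01e-16), followed by SLC1A4 (-3.36 ± 0.087, adjusted p = 1.01e-17), PSAT1 (-2.04 ± 0.047, adjusted p = 1.43e-18) and TRIB3 (-1.999 ± 0.064, adjusted p = 3.35e-16). CHAC1 (1.61 ± 0.063, adjusted p = 9.93e-15), WARS1 (1.44 ± 0.034, adjusted p = 2.86e-18), CEBPB (0.63 ± 0.069, adjusted p = 1e-07), NUPR1 (0.50 ± 0.13, adjusted p = 0.00204) and AARS1 (0.27 ± 0.047, adjusted p = 6.13e-05) differed the other way. MARS1 (-0.11 ± 0.043, adjusted p = 0.0339) lost its call in 11 of 18 alternative settings, and AARS1 by library size alone (adjusted p = 0.131). For ATF4 (-0.048 ± 0.052, adjusted p = 0.446), DDIT4 (0.011 ± 0.053, adjusted p = 0.881), VLDLR (-0.088 ± 0.07, adjusted p = 0.288), ALDH18A1 (-0.13 ± 0.057, adjusted p = 0.0603) and GPT2 (0.092 ± 0.046, adjusted p = 0.0902) no difference passed the test. By library size alone the DDIT4 difference turned from slightly above to below 0 and passed (-0.17, adjusted p = 0.00664). Across the 41 genes the 2 sets of log2 fold changes had Pearson's r of -0.39 and Spearman's rho of -0.31. Over all 15655 genes these were -0.31 and -0.28. Genes are not independent replicates, and medium, handling and sequencing also differ between the experiments.

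**Figure D5:**
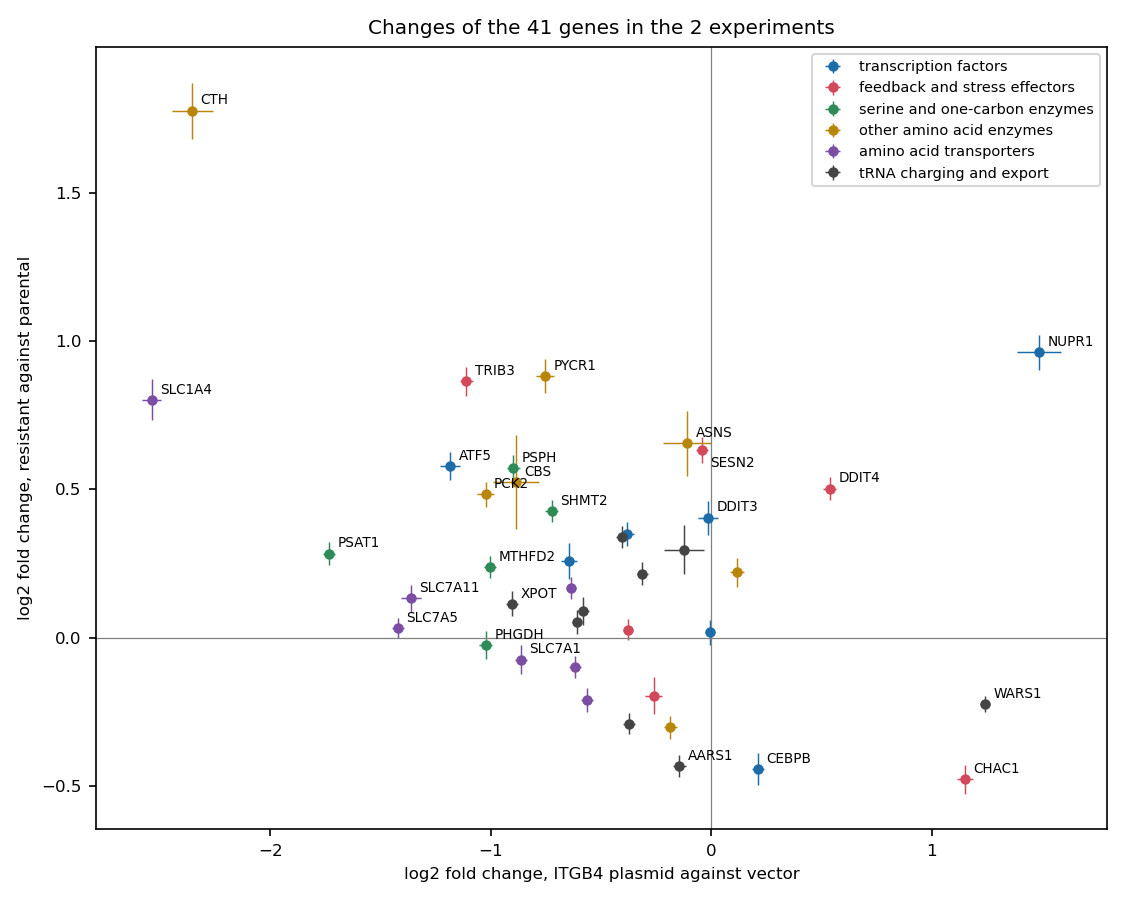
Log2 fold change of each member with the plasmid (horizontal) and in resistant cells (vertical), coloured by role, with lines of 1 standard error. Most points lie upper left, CTH farthest out at -2.36 and 1.78, while WARS1, CHAC1 and CEBPB lie lower right and NUPR1 and DDIT4 upper right.

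Genes around these members, from lists named by function and also chosen with earlier results of these data known, were read the same way. Their counts stand beside the 36.5% of all genes higher and 35.7% lower with the plasmid, and the 26.8% higher and 27.7% lower in resistant cells. Of 16 genes of the eIF2 kinases, phosphatases and eIF2B, 4 were higher and 7 lower with the plasmid, and 7 were higher and 7 lower in resistant cells. With the plasmid, PPP1R15A, the stress-induced subunit that dephosphorylates eIF2, fell from 349 ± 7.87 to 195 ± 1.45 CPM (mean ± SD, n = 3; log2 fold change -0.84 ± 0.026, adjusted p = 2.42e-14). GCN1, a co-activator of the amino acid sensor kinase GCN2, rose from 391 ± 2.79 to 652 ± 17.8 CPM (0.74 ± 0.025, adjusted p = 8.39e-14). In resistant cells PPP1R15B, the constitutive counterpart of PPP1R15A, fell from 306 ± 4.90 to 186 ± 7.65 CPM (-0.72 ± 0.042, adjusted p = 1.57e-10), and it also fell with the plasmid (-0.48 ± 0.029, adjusted p = 1.65e-10). IMPACT, an inhibitor of GCN2 activation, rose from 27.99 ± 0.219 to 49.9 ± 1.01 CPM (0.84 ± 0.06, adjusted p = 2.39e-09), and EIF2AK3, the kinase PERK, fell from 43.98 ± 3.23 to 29.7 ± 1.96 CPM (-0.56 ± 0.072, adjusted p = 3.49e-06).

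Among 15 other ATF4-responsive genes, 12 of 13 tested fell with the plasmid and none rose (median log2 fold change -1.07), and 8 of 14 tested rose in resistant cells while 2 fell (median 0.34). ATF3, a stress-induced factor, went from 52.2 ± 1.66 to 16.98 ± 0.905 CPM with the plasmid (-1.63 ± 0.048, adjusted p = 1.02e-14) and from 19.3 ± 0.945 to 40.8 ± 3.47 CPM in resistant cells (1.08 ± 0.077, adjusted p = 2.48e-09). GDF15, a stress hormone, fell from 1288 ± 14.4 to 616 ± 28.8 CPM with the plasmid (-1.07 ± 0.029, adjusted p = 4.11e-15) and also in resistant cells (-0.23 ± 0.056, adjusted p = 0.00183). VEGFA, the angiogenic growth factor, fell from 1418 ± 14.8 to 827 ± 12.2 CPM (-0.78 ± 0.022, adjusted p = 6.09e-15). In resistant cells EIF4EBP1, a repressor of cap-dependent translation, rose from 121 ± 2.34 to 189 ± 18.5 CPM (0.64 ± 0.058, adjusted p = 5.41e-08), and LONP1, a mitochondrial protease, rose from 112 ± 2.70 to 157 ± 9.97 CPM (0.49 ± 0.05, adjusted p = 2.28e-07). EIF4EBP1 moved the other way with the plasmid (-0.84 ± 0.041, adjusted p = 1.03e-11).

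Synthetase genes outside the members were mixed with the plasmid. Of 15 other cytosolic genes and scaffold parts, 6 rose and 7 fell with the plasmid (median -0.073). The falls include VARS1, for valine (-1.16 ± 0.39, adjusted p = 0.0134). Its groups overlapped, at 108, 190 and 47 counts with the vector and 34, 60 and 44 with the plasmid. VARS1 held 387, 2 and 4 counts in parental libraries, so its values are uncertain. IARS1, for isoleucine, fell from 491 ± 8.64 to 259 ± 4.17 CPM (-0.93 ± 0.025, adjusted p = 4.34e-15), YARS1, for tyrosine, fell (-0.43 ± 0.024, adjusted p = 6.48e-11), and RARS1, for arginine, rose from 138 ± 2.52 to 208 ± 6.70 CPM (0.59 ± 0.03, adjusted p = 1.63e-11). In resistant cells 7 of 14 rose and 2 fell. FARSB, a subunit for phenylalanine, rose from 39.8 ± 0.845 to 95.1 ± 9.08 CPM (1.26 ± 0.064, adjusted p = 2.86e-11), and the scaffold parts EEF1E1 (0.66 ± 0.088, adjusted p = 6.38e-06) and AIMP2 (0.58 ± 0.082, adjusted p = 1.16e-05) rose too. Of 16 mitochondrial synthetases tested, 8 rose and 5 fell with the plasmid (median 0.083), and 7 rose and 3 fell in resistant cells. TARS2 (0.61 ± 0.044, adjusted p = 1.59e-09) and CARS2 (0.44 ± 0.04, adjusted p = 3.51e-08) rose with the plasmid and MARS2 fell (-0.56 ± 0.053, adjusted p = 5.51e-08). NARS2 (0.66 ± 0.078, adjusted p = 1.31e-06) and EARS2 (0.48 ± 0.08, adjusted p = 7.44e-05) rose in resistant cells and LARS2 fell (-0.31 ± 0.06, adjusted p = 0.000272). The median of the 8 member synthetases with the plasmid was -0.34. VARS2 was listed at 0 in all libraries.

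Among 20 other amino acid and one-carbon enzymes, 2 of 19 tested rose and 12 fell with the plasmid, and 10 of 18 tested rose and 3 fell in resistant cells. GOT1, the cytosolic aspartate aminotransferase, fell from 115 ± 2.55 to 44.3 ± 0.289 CPM with the plasmid (-1.38 ± 0.033, adjusted p = 6.2e-16). MAT2A, which makes S-adenosylmethionine, fell (-0.58 ± 0.024, adjusted p = 1.18e-12), as did the proline-breakdown enzyme ALDH4A1 (-1.46 ± 0.065, adjusted p = 2.63e-12). In resistant cells GLUL, glutamine synthetase, fell from 879.6 ± 4.72 to 506 ± 3.89 CPM (-0.80 ± 0.033, adjusted p = 1.74e-12). BCAT2, the mitochondrial branched-chain aminotransferase, rose from 133 ± 1.04 to 224 ± 19.9 CPM (0.75 ± 0.054, adjusted p = 2.59e-09).

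Of the other amino acid carriers, 6 of 16 tested rose and 9 fell with the plasmid, and 4 of 14 rose and 6 fell in resistant cells. SLC7A2, a cationic amino acid carrier related to SLC7A1, fell in both, from 194 ± 0.796 to 76.5 ± 2.98 CPM with the plasmid (-1.34 ± 0.031, adjusted p = 5.44e-16) and from 233 ± 1.59 to 45.3 ± 4.64 CPM in resistant cells (-2.36 ± 0.06, adjusted p = 4.01e-15). SLC7A8, the LAT2 carrier (-0.87 ± 0.036, adjusted p = 9.46e-13), and SLC6A6, the taurine carrier (-0.44 ± 0.03, adjusted p = 7.48e-10), fell with the plasmid. SLC6A14, a broad amino acid carrier, fell in resistant cells from 29.5 ± 0.240 to 4.73 ± 1.02 CPM (-2.63 ± 0.12, adjusted p = 4.61e-12). SLC43A2, a carrier of large neutral amino acids, rose from 0.443 ± 0.206 to 2.88 ± 0.346 CPM (2.70 ± 0.32, adjusted p = 1.29e-06).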

How the data were processed

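The authors deposited raw counts per gene in 2 tables, 1 per experiment, and no normalized values. Libraries were made from total RNA with a kit that marks strand, per the labels' protocols. Per the file headers, the counts of the overexpression experiment came from featureCounts 2.0.1 on paired-end alignments named hisat, with Ensembl release 107 on GRCh38 and no strand option. Per the submitters' processing notes the build was hg38. How the resistance table was aligned, counted, annotated and stranded was not given in the sources used here. Symbols were taken from a table of Ensembl identifiers, which named 61757 of 61860 and 62700 of 62700 rows, and positions from GENCODE release 29 (GRCh38). Counts were fitted in R 4.3.3 with edgeR 4.0.16 (TMM factors, filterByExpr, quasi-likelihood F test, glmTreat for changes over 1.5-fold), separately for each experiment, and in 1 fit of 12 libraries for the difference between experiments. P-values were adjusted over all genes by the Benjamini-Hochberg method. An exact permutation test of 3 libraries against 3 cannot go below p = 0.10, so none was used. DESeq2 1.42.0 and limma 3.58.1 (voom), other scalings, other low-count filters, a replicate block and leaving out each library were the alternatives, and the fits were tested on simulated data. Replicates differed beyond counting noise (chi-square per degree of freedom 1.54 to 12.2), and each was counted as 1 sample.

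Members and lists were chosen with earlier results of these data known. All 41 members are described. Values in every library are given for ATF4 and, within each role, for the called members with the largest log2 fold change (up to 4 per comparison), and from each other list up to 3 called genes of smallest p per comparison. 1 gene that this rule names is not reported here. Protein sequences were not used here.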

Additional observations from a re-analysis of the deposited data

How the results depend on the processing

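With the plasmid, the counts of members stayed within 1.5 times of their values under every alternative run, and the call of 2 members, SESN2 and CARS1, changed in any of 14 settings. Scaling by library size alone moved the resistant comparison most: 5 members were lower in place of 9, and 10 in place of 5 passed 1.5-fold. Under that scaling PHGDH turned to 0.14 and SLC38A2 to 0.0647 in resistant cells, and the difference between experiments turned to -0.17 for DDIT4. The call of 15 members changed in at least 1 of 14 settings of the resistant comparison, and that of 8 in the difference between experiments, where MARS1 lost its call in 11 settings. Leaving out 1 library gave 6 to 6 members higher and 30 to 31 lower with the plasmid, and 19 to 20 past 1.5-fold. For resistant cells it gave 21 to 26 higher, 7 to 10 lower and 4 to 6 past 1.5-fold, and for the difference 34 to 38. With the replicate number as a block, 6 members were higher, 30 lower and 19 past 1.5-fold with the plasmid. The numbers did not pair the libraries (correlations of same-numbered deviations of -0.017, -0.026 and -0.0058). For resistant cells, a replicate block by the numbers in the column headings, chosen after seeing the data, gave 25 members higher, 8 lower and 5 past 1.5-fold, and SLC38A2 lost its call. These numbers, which tie no parental column to a titled sample, did not pair the libraries either (-0.024, -0.0024 and -0.042). Depth limits ASNS and CTH in both experiments and NUPR1 in the first.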
